A study of Mus musculus with 18 samples.

Results

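Liver transport and metabolic genes, as described here, are 10 genes picked by symbol from the deposited count tables: Alb, Afp, Ttr, Rbp4, Ahsg, Ambp, Itih3, Cps1, Pck1 and Vtn. All 10 have a row in each of the 3 tables, which hold 49585 genes for the Aire and the Fezf2 libraries and 21969 genes for the Chd4 libraries. The readout was the exon read count per gene in RNA-seq libraries of mTECs, medullary epithelial cells sorted from mouse thymus, which express genes typical of many other tissues and show the products to developing T cells. The 18 libraries form 6 groups of 3, and each knockout was set against its own control. Mice labelled Aire KO and Fezf2 KO were C57BL/6, and each line had a separate wild-type (WT) group of that strain. The column names of the counts write the Fezf2 line as a conditional knockout, but no driver of the deletion is named. Chd4 conditional knockout (cKO) mice carried floxed Chd4 alleles and Foxn1-Cre, which drives recombination in thymic epithelium, and their controls carried the floxed alleles alone, both on a mixed C57BL/6x129P2 background. The sources used here give neither ages nor whether the 3 libraries of a group came from separate animals, so a p-value reflects only how far these libraries spread, which may be technical.

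Aire and Fezf2 are transcriptional regulators of tissue-restricted genes in mTECs, and Chd4 is the ATPase of a nucleosome remodelling and deacetylase complex. The 10 genes are transcribed in hepatocytes, though not all of them only there, and Afp mainly in the fetus. Factors of the HNF4, C/EBP and FOXA families act on such genes. Most of the products are secreted into plasma as carriers, protease inhibitors or matrix proteins, and Cps1 and Pck1 are intracellular enzymes. In the thymus such genes count as self-antigens, which single mTECs express in changing combinations, so a bulk library averages over many cells that differ. Fewer cells with a transcript and fewer transcripts per cell cannot be told apart in these libraries.

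RefSeq promoter windows on GRCm38.p6, each of 300 bases with 250 before the start site and 50 from it on, were found for 8 of the 10 genes. The 4 shown belong to genes on which the comparisons below turn: Alb and Afp, which are neighbours on chromosome 5, Itih3, whose reads were nearly absent from the Aire KO libraries, and Pck1, whose reads were lowest in the Fezf2 KO libraries. The window of Alb is chr5:90460620-90460919 and that of Afp is chr5:90490464-90490763, both on the plus strand. Itih3 is read from the minus strand at chr14:30923538-30923837, and Pck1 from the plus strand at chr2:173152823-173153122. Capitals mark matches on either strand to 6 short motifs: GTTAAT (common in promoters of liver genes), TTGCNNAA (C/EBP), TGTTTAC (FOXA), CAAAGT (HNF4), ACGTCA (CREB) and TATAAA (the letters of a TATA box, wherever they lie).
Alb: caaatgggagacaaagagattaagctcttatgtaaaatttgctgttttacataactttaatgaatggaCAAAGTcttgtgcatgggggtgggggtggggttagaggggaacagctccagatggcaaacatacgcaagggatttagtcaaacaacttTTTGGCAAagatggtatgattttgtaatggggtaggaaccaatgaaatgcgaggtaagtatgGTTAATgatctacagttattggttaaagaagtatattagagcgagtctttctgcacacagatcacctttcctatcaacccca
Afp: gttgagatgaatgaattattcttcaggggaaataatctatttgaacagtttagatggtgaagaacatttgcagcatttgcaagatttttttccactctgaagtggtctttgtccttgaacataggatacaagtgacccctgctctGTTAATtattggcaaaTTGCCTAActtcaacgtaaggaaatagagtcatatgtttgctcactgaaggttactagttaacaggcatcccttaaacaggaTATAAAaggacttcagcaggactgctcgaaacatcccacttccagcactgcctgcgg
Itih3: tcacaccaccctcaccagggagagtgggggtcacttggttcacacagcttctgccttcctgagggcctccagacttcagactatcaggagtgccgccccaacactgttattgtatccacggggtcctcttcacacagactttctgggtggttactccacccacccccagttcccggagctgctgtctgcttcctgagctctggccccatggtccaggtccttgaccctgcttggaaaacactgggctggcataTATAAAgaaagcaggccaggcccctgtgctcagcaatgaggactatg
Pck1: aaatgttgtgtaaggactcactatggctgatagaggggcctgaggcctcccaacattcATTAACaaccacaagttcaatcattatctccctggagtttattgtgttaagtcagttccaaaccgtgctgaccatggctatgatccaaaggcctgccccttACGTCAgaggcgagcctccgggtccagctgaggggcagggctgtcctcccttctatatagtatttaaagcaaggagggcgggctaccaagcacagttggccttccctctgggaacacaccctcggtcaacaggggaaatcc

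GTTAAT occurred in the windows of 4 of the 8 genes (Alb, Afp, Pck1 and Vtn), against 7.1% of all 32851 RefSeq windows. In Alb it began 32 bases before the start site of the RefSeq window, and in Afp 105 bases before that of its window. TTGCNNAA was also found for 4 genes (Alb, Afp, Ahsg and Rbp4, which has 2 windows), against 10.8% of all windows. TATAAA was in those of Afp, Itih3, Rbp4 and Vtn, against 13.6%, and CAAAGT in those of Alb, Ahsg and Vtn, against 14.4%. TATAAA began 28 bases before the start site in Rbp4, 7 before it in Afp, 135 and 137 before it in Vtn and 4 after it in Itih3. These distances are from the start sites of the RefSeq windows, from which the gene starts in the count annotation differ. For Afp that gene start, 90490737, lies further downstream, so TATAAA lies more than 7 bases before it. The places depend on the start used, and the letters alone are not shown to be a TATA box. ACGTCA was found for Pck1 alone among the 8, beginning 91 bases before the start site, against 7.51% of all windows, and TGTTTAC for Rbp4 alone, against 3.65%. The window of Ambp held none of the 6 motifs, which says only that these letters are not in it. A match describes letters and is not evidence of binding.

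Exon reads per library ranged from 3571570 to 17220157, with the deepest library in the Chd4 cKO group. Values below are CPM, read counts relative to the library's total, scaled by the TMM method, and 3 reads, the upper limit that a count of 0 allows, correspond to 0.174 to 0.84 CPM. Thymic epithelial markers summed to between 30610 and 50730 CPM in every library. In WT for Aire most of that sum came from Cd74 (325888 reads) and H2-Aa (137584 reads), against 8734 reads for Epcam. The sum is therefore no measure of epithelial content alone. Of the 12 markers tested, 3 fell and 3 rose in Aire KO and in Chd4 cKO, and 0 fell and 1 rose in Fezf2 KO. Fezf2 fell in its KO libraries (570 to 735 CPM in WT, 8.44 to 23.4 CPM in KO) and Chd4 fell in the cKO libraries (55.4 to 66.5 CPM against 24.6 to 30.2 CPM). Aire reads were higher in the libraries labelled Aire KO (3737 to 4088 CPM) than in WT (1810 to 2302 CPM). Which exons that allele lacks is not stated, and reads summed over all exons are therefore no check of the label. Aire KO below stands for the libraries labelled so. Library B of the WT group for Fezf2 stood apart from the other 2 in several of the genes, as given beside each.

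In the control groups the enzyme gene Pck1 and the carrier gene Ttr had the highest levels per exon length, and the glycoprotein genes Ahsg and Vtn the lowest. In RPKM, the CPM divided by the kilobases of exon, Pck1 averaged 16.9 ± 5.61 in WT for Aire, 24.0 ± 6.09 in WT for Fezf2 and 30.2 ± 0.79 in the Chd4 controls (SD, n = 3 each). Ttr averaged 8.55 ± 5.79, 29.6 ± 22.5 and 27.4 ± 4.88 RPKM in the same groups. Behind them came Ambp (6.08, 10.1 and 9.06 RPKM) and Rbp4 (4.32, 7.63 and 8.95 RPKM). Alb, among the most abundant transcripts of the liver, was at 1.98, 3.38 and 3.17 RPKM, and Vtn was last in all 3 groups at 1.02, 0.874 and 1.76 RPKM. Neighbours in this order mostly did not differ beyond their spread: the ranges over libraries were apart between Ahsg and Vtn in WT for Aire, between Pck1 and Ambp in WT for Fezf2 and between Ttr and Ambp in the Chd4 controls, and all other adjacent ranges overlapped. Exon lengths for Alb, Afp, Itih3, Pck1 and Vtn differ between the tables, so the Chd4 levels per length rest on another annotation.

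**Figure D1:**
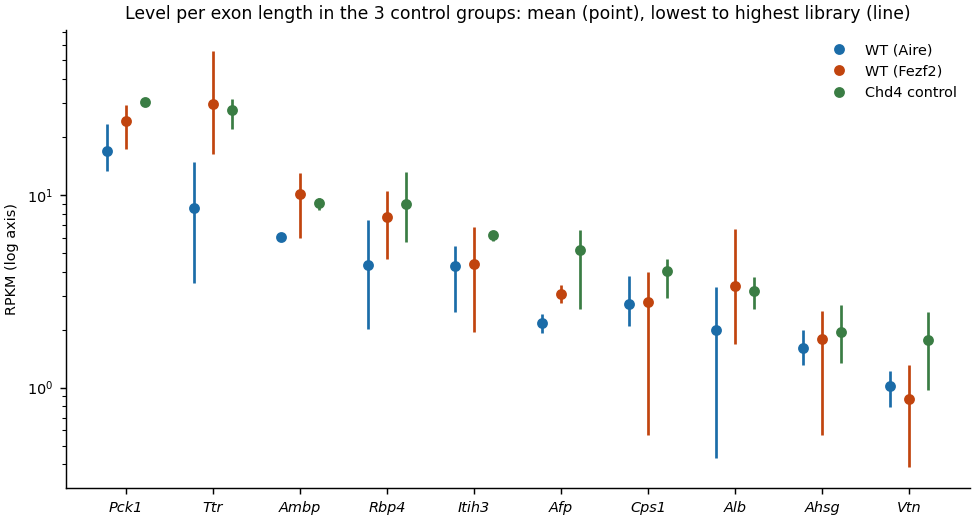
RPKM (log axis) of the 10 genes in the WT group for Aire, the WT group for Fezf2 and the Chd4 control group, as the mean of 3 libraries (points) and the lowest to highest library (lines). Pck1 and Ttr lie highest, Vtn lies lowest in each group, and most neighbouring ranges overlap.

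The 2 WT groups share the labelled strain and genotype, but not the level of Y-linked genes. These summed to 12.3 to 196 CPM in WT for Aire and 0.241 to 1.05 CPM in WT for Fezf2, each scaled with its own KO. The share of reads from male mice thus differed. Between the 2 WT groups none of the 9 genes tested differed by edgeR's quasi-likelihood test, where 0.128% of 15656 genes did. At an unadjusted p under 0.05 there was 1 (Ttr, log2 difference 1.73, SE 0.58, adjusted p = 0.263), and DESeq2 and limma-voom called 0. Scaled together, Ttr spanned 4.46 to 18.9 CPM in WT for Aire and 19.9 to 68.4 CPM in WT for Fezf2, a fitted 3.32-fold difference. Afp spanned 6.76 to 8.45 CPM and 9.29 to 11.6 CPM, so the WT groups did not overlap for these 2 genes, both higher in WT for Fezf2. Of the genes tested, 10.4% lay wholly higher there and 10% wholly lower.

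Libraries labelled Aire KO had lower values for most of the 10 genes. Of the 7 genes with enough reads to be tested, 3 fell (Itih3, Afp and Cps1) and 0 rose, in a comparison where 9.37% of 14949 genes fell and 5.73% rose. No member rose at an unadjusted p under 0.05 either, nor by DESeq2 or limma-voom. The median log2 fold change of the 7 was -2.25, beside 0.00 over all genes tested to 2 decimals. Itih3 (0, 0 and 1 KO reads), Afp (0, 11 and 1), Rbp4 (10, 0 and 0) and Cps1 (7, 29 and 6) passed the filter on low counts only through their WT libraries. The count of calls and this median rest in part on that filter and are no separate evidence of a fall. All 3 KO libraries lay below all 3 WT libraries for 8 of the 10 genes (all but Ttr and Pck1), 5 of them among the 7 tested, against 17.1% of tested genes in that direction and 15% in the other. Alb, Ahsg and Vtn were among the 8 but were left out of the test by the filter on low counts.

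Fezf2 KO libraries had a different pattern, in which the 2 genes least changed in Aire KO were the ones that fell. Of 9 genes tested, Ttr and Pck1 fell and 0 rose, where 2.4% of 15695 genes fell and 2.48% rose. Ahsg missed the threshold upwards (adjusted p = 0.0716) and was the 1 gene higher at an unadjusted p under 0.05. DESeq2 called it higher, and limma-voom called Ahsg and Rbp4 higher. The median log2 fold change of the 9 was 0.40, beside -0.03 over all genes. KO libraries lay wholly below WT for Ttr and Pck1, against 13.4% of the genes tested, and wholly above WT for Rbp4, Ahsg and Cps1, against 14.2%.

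Chd4 cKO libraries were lower in genes of both kinds. Of 9 genes tested, 5 fell (Ttr, Rbp4, Cps1, Itih3 and Pck1) and 0 rose, where 14.3% of 15182 genes fell and 14.3% rose. No gene of the 10 rose at an unadjusted p under 0.05, by DESeq2 or by limma-voom. The median log2 fold change was -1.21, beside 0.00 over all genes. All cKO libraries lay below all controls for 7 of the 10 genes, these 5 with Ambp and the untested Vtn, where 22.1% of the genes tested lay below and 22.1% above. None of the 10 genes was called in all 3 knockouts. Ttr, Itih3, Cps1 and Pck1 were called in 2 of the 3, Afp and Rbp4 in 1, and Alb, Ahsg, Ambp and Vtn in none.

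**Figure D2:**
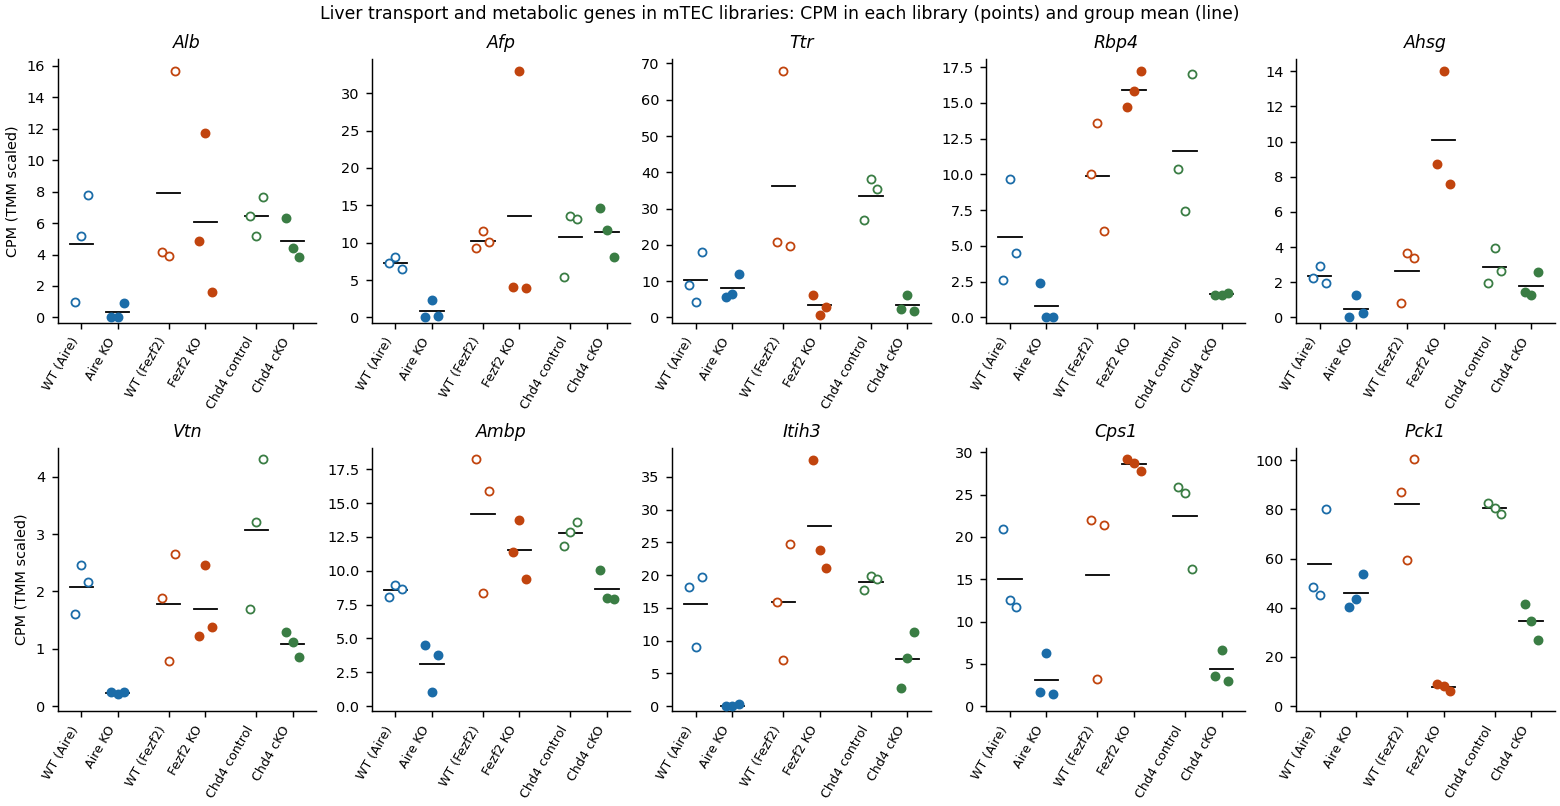
CPM of each gene in each of the 18 libraries, with open points for controls, filled points for knockouts and a line at the group mean; each panel has its own axis from 0. Itih3 is near 0 in the 3 Aire KO libraries, Pck1 is below 10 CPM in the 3 Fezf2 KO libraries, and Ttr is low in both the Fezf2 KO and the Chd4 cKO libraries.

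Alb and Afp are neighbouring genes of the albumin family, Alb encoding the main carrier protein of adult plasma and Afp its fetal counterpart. In the tables Alb spans positions 90460897 to 90476602 and Afp 90490737 to 90508907 of chromosome 5. The span of Afp overlaps that of an antisense gene, Gm43449. Whether their exons overlap was not examined, and the counting is not stated to use strand. Reads of Gm43449 may therefore be among those of Afp. Alb was at 1.01, 5.16 and 7.77 CPM in WT for Aire (libraries A, B and C, in this order throughout), and Aire KO had 0, 0 and 0.946 CPM. All 3 KO values were below the lowest WT value, on 64 reads in WT and 4 in KO. Afp was at 7.27, 8.08 and 6.48 CPM in WT and at 0, 2.36 and 0.237 CPM in Aire KO. The WT libraries were close to each other, the KO libraries were all lower, and Afp fell by 2.98 on the log2 scale (SE 0.75, adjusted p = 0.0163).

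That call of Afp was lost without WT library A (adjusted p = 0.0534) or without WT library B (adjusted p = 0.0555), and the log2 fold change was -5.63 without KO library B, which held most KO reads. Alb was not tested, and passed the threshold in the fit with no filter on low counts (log2 fold change -3.78, adjusted p = 0.000118) and with DESeq2 (-3.91, adjusted p = 0.0071). It passed in 5 of the 7 alternative fits that kept it and not without KO library A (adjusted p = 0.0678) or KO library B (adjusted p = 0.101). Without KO library C, which held all 4 KO reads, the fitted log2 fold change was -7.41. In Fezf2 KO the 2 genes were uneven between libraries: Afp was at 4.02, 32.9 and 3.90 CPM against 9.22, 11.5 and 10.1 CPM in WT. Library B was above every WT library and libraries A and C below every one. Alb was also highest in library B (4.89, 11.7 and 1.61 CPM in KO, 4.19, 3.93 and 15.7 CPM in WT), and the groups overlapped for both genes (adjusted p = 0.801 for Afp and 0.817 for Alb). Neither was called in Chd4 cKO, where Alb was at 6.32, 4.39 and 3.85 CPM against 6.47, 5.20 and 7.66 CPM, and Afp at 14.7, 11.7 and 8.14 CPM against 5.35, 13.6 and 13.2 CPM. The log2 differences there were -0.40 for Alb (1.96 SE either side, -1.05 to 0.24) and 0.10 for Afp (-0.56 to 0.76).

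Ttr encodes transthyretin, which carries thyroxine and binds the retinol carrier, and Rbp4 encodes that carrier. Ttr measured 20.8, 67.8 and 19.7 CPM in the WT libraries for Fezf2, and the Fezf2 KO libraries had 6.29, 0.617 and 2.98 CPM. The groups were apart although WT library B was above 3 times the other 2, and Ttr fell by 3.40 (log2, SE 0.69, adjusted p = 0.0215). In the Chd4 controls it was at 26.7, 38.1 and 35.4 CPM and in the cKO at 2.30, 6.27 and 1.71 CPM. There Ttr fell by 3.07 (log2, SE 0.36, adjusted p = 0.0002) with no overlap. In Aire KO it was at 5.71, 6.43 and 12.1 CPM against 8.88, 4.26 and 18.1 CPM in WT, which overlapped (log2 -0.37, SE 0.47, adjusted p = 0.678). The call in Fezf2 KO was lost without KO library B (adjusted p = 0.0781) or KO library C (adjusted p = 0.135) and held without WT library B, at a smaller log2 fold change of -2.57, and without KO library A, at -4.33. Without cKO library B the log2 fold change in Chd4 cKO was -4.0.

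Rbp4 showed the opposite order of the 2 C57BL/6 lines. It was at 2.62, 9.65 and 4.53 CPM in WT for Aire and at 2.38, 0 and 0 CPM in Aire KO, where all 10 KO reads came from library A. The log2 difference of -2.81 (SE 0.94) had an adjusted p of 0.0644, and Rbp4 passed the threshold without that library (-7.68, adjusted p = 0.00415, against KO libraries with 0 reads, so the fitted size is no measure). It also passed with no filter on low counts (adjusted p = 0.000583), with limma-voom (0.0174) and in the fit of all 18 libraries (0.0131), while DESeq2 gave 0.395. In Fezf2 KO it was at 14.7, 15.8 and 17.2 CPM against 10.1, 13.6 and 6.02 CPM. The KO libraries were all above WT, with a log2 difference of 0.68 (SE 0.34, adjusted p = 0.306). In Chd4 cKO it was at 1.58, 1.58 and 1.71 CPM against 10.4, 7.42 and 17.0 CPM in the controls. The cKO libraries were alike and all lower, and Rbp4 fell by 2.84 (log2, SE 0.39, adjusted p = 0.000483).

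Ahsg encodes fetuin-A, a plasma glycoprotein that keeps calcium phosphate in solution, and Vtn encodes vitronectin, a plasma and matrix protein that binds integrins. Both were low, and the span of Ahsg overlaps that of an antisense gene, Gm30505, with overlap of exons not examined. Ahsg was at 2.22, 2.92 and 1.94 CPM in WT for Aire and 0, 1.29 and 0.237 CPM in Aire KO, on 33 and 7 reads. In Fezf2 KO it was at 8.74, 14.0 and 7.57 CPM against 0.839, 3.67 and 3.37 CPM in WT. Every Fezf2 KO library was thus above every WT library, yet the log2 difference of 1.96 (SE 0.54) missed the threshold at an adjusted p of 0.0716. It passed it without WT library B (2.28, adjusted p = 0.019), with DESeq2 (1.98, adjusted p = 0.0162) with no filter on low counts (1.98, adjusted p = 0.011), with limma-voom (2.45, adjusted p = 0.00579) and in the fit of all 18 libraries (1.95, adjusted p = 0.0333). In Chd4 cKO it was at 1.44, 1.29 and 2.57 CPM against 1.97, 3.96 and 2.63 CPM (log2 -0.78, 1.96 SE either side, -1.71 to 0.15, adjusted p = 0.244).

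Vtn had too few reads for the test in each comparison. It was at 1.61, 2.47 and 2.16 CPM in WT for Aire and at 0.238, 0.214 and 0.237 CPM, 1 read in each library, in Aire KO. The 29 reads in WT and 3 in KO give a ratio of 9.01 (95% exact conditional interval 2.79 to 46.2, counting error only), and Vtn passed the threshold in 1 of the 5 alternative fits that kept it, that of all 18 libraries (log2 -3.04, adjusted p = 0.0077). The other 4 gave an adjusted p from 0.0512 without KO library C to 0.0785 with DESeq2. Its groups overlapped in the Fezf2 comparison (1.22, 2.47 and 1.38 CPM in KO, 1.89, 0.786 and 2.65 CPM in WT). In Chd4 cKO all 3 libraries (1.29, 1.11 and 0.857 CPM) lay below the controls (1.69, 3.22 and 4.31 CPM). The fit with no filter on low counts gave -1.42 there with an adjusted p of 0.0799, and of the 8 alternative fits that kept Vtn 1 passed, that without control library A (-1.74, adjusted p = 0.0326).

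Ambp encodes the precursor of alpha-1-microglobulin and bikunin, and bikunin is the light chain that joins heavy chains such as that from Itih3 to form inter-alpha-inhibitor, a stabiliser of hyaluronan matrix. Ambp was at 8.07, 8.98 and 8.64 CPM in WT for Aire and at 4.52, 1.07 and 3.78 CPM in Aire KO. The groups were apart, with a log2 difference of -1.46 (SE 0.48) that missed the threshold at an adjusted p of 0.0565. It passed it with upper quartile scaling (adjusted p = 0.0497), limma-voom (0.022), no filter on low counts (0.0164), all 18 libraries in a single fit (0.0129) or without KO library A (0.0396). In Fezf2 KO Ambp overlapped WT (11.4, 13.8 and 9.40 CPM against 18.2, 8.38 and 15.9 CPM). In Chd4 cKO it was at 10.1, 7.97 and 7.92 CPM, below all controls at 11.8, 12.9 and 13.6 CPM, with a log2 difference of -0.57 (SE 0.22, adjusted p = 0.0796).

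Itih3, a heavy chain of that complex at positions 30908573 to 30923760 of chromosome 14, had the largest fitted fold of the 10 genes. It was at 18.2, 8.98 and 19.7 CPM in WT for Aire and at 0, 0 and 0.237 CPM in Aire KO. A single read was left in the 3 KO libraries against 221 in WT, a ratio of 206 (95% exact conditional interval 36.6 to 8176, counting error only), and the fitted log2 fold change was -7.23 (SE 0.72, adjusted p = 2.55e-05). Without KO library C, which held that read, no KO read remained. In Chd4 cKO it fell by 1.45 (log2, SE 0.37, adjusted p = 0.0155), at 2.73, 7.32 and 11.4 CPM against 17.7, 19.8 and 19.4 CPM. The controls were close together there and the cKO libraries spread but all lower. In Fezf2 KO it was at 37.6, 23.9 and 21.1 CPM against 15.9, 7.07 and 24.8 CPM in WT, which overlapped (log2 0.79, 1.96 SE either side, -0.02 to 1.59, adjusted p = 0.33).

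Cps1 encodes carbamoyl-phosphate synthetase, the entry enzyme of the urea cycle, at positions 67123026 to 67231259 of chromosome 1. It was at 21.0, 12.6 and 11.7 CPM in WT for Aire and at 1.67, 6.22 and 1.42 CPM in Aire KO. All KO libraries were lower, and Cps1 fell by 2.25 (log2, SE 0.49, adjusted p = 0.00716). Leaving out WT library A ended this call (adjusted p = 0.0507), and leaving out KO library B gave a log2 fold change of -3.26. In Chd4 cKO it was at 3.59, 6.62 and 3.0 CPM against 25.9, 25.2 and 16.3 CPM. It fell there by 2.24 (log2, SE 0.31, adjusted p = 0.000561). In Fezf2 KO it was at 29.2, 28.8 and 27.8 CPM against 22.01, 3.14 and 21.4 CPM. The KO libraries were alike and all higher than WT, in which library B was far below the other 2, and the log2 difference of 0.87 (SE 0.51) had an adjusted p of 0.386.

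Pck1 encodes cytosolic phosphoenolpyruvate carboxykinase, which controls gluconeogenesis and is induced through cyclic AMP, and it spans positions 173153048 to 173159273 of chromosome 2. It measured 87.2, 59.5 and 100.4 CPM in the WT libraries for Fezf2, and the Fezf2 KO libraries had 8.91, 8.23 and 5.96 CPM. Pck1 had the smallest p of the 10 genes in that comparison. It fell by 3.41 (log2, SE 0.28, adjusted p = 0.000259). In Chd4 cKO it was at 41.6, 34.7 and 27.0 CPM against 82.4, 80.6 and 78.2 CPM in the controls. Pck1 fell there by 1.21 (log2, SE 0.14, adjusted p = 0.00021), less than in Fezf2 KO. In Aire KO it was at 40.2, 43.5 and 53.7 CPM against 48.5, 45.3 and 80.1 CPM in WT, which overlapped (log2 -0.34, 1.96 SE either side, -0.75 to 0.07, adjusted p = 0.337).

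**Figure D3:**
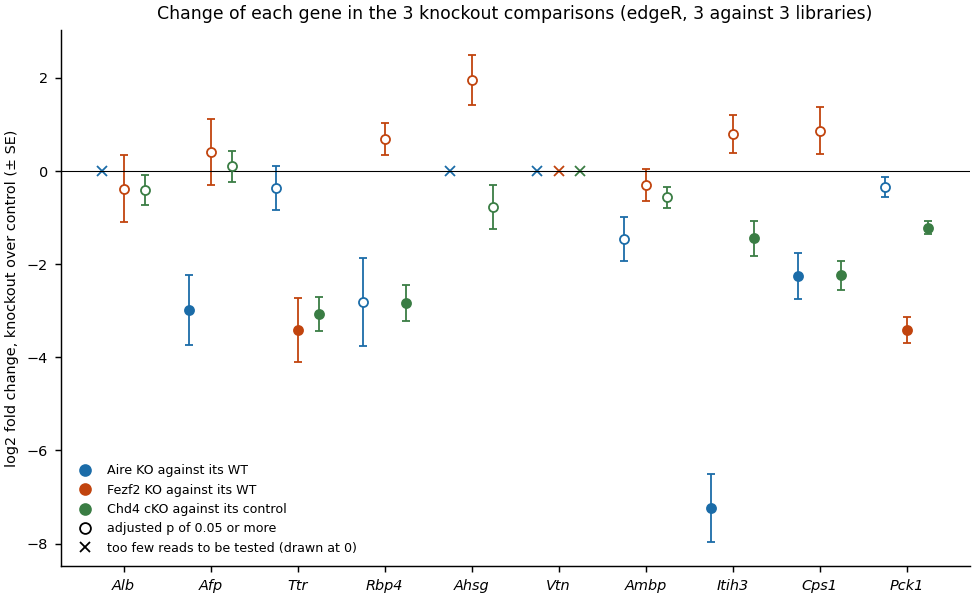
Log2 fold change ± SE of each gene in the 3 comparisons, with filled points where the adjusted p is under 0.05, open points where it is not and crosses at 0 where too few reads allowed no test. Itih3, Afp and Cps1 are filled for Aire KO, Ttr and Pck1 for Fezf2 KO, and Ttr, Rbp4, Itih3, Cps1 and Pck1 for Chd4 cKO.

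The difference between the knockouts was tested directly as interaction contrasts in a fit of all 18 libraries. The effects of Fezf2 KO and of the libraries labelled Aire KO differed for 8 of the 10 genes, where 16.9% of 16169 genes did. Pck1 (log2 difference of effects -3.09, SE 0.34, adjusted p = 2.33e-06) and Ttr (-3.06, SE 0.87, adjusted p = 0.0191) were lower in Fezf2 KO relative to Aire KO. Afp, Rbp4, Ahsg, Itih3, Cps1 and Vtn were higher, from 2.96 for Vtn to 8.08 for Itih3. With each of the 12 libraries left out in turn, Pck1, Itih3, Cps1 and Ahsg passed in all 12 fits, Rbp4 in 11 (not without WT library B for Aire), Ttr in 9 (not without Aire KO library C, WT library B for Fezf2 or Fezf2 KO library B), Afp in 6 and Vtn in 4. Over these fits Afp ranged from 1.60 to 6.09 and Rbp4 from 2.85 to 8.70. Alb (3.43, adjusted p = 0.0723) and Ambp (1.14, adjusted p = 0.14) did not pass with all libraries.

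Between the Chd4 and Aire effects 2 genes differed, where 16.5% of genes did. Itih3 was less reduced in Chd4 cKO (5.90, SE 1.12, adjusted p = 0.000934) in all 12 leave-one-out fits, while Ttr (-2.74, SE 0.84, adjusted p = 0.0291) passed in 5 of 12. The differences for Rbp4 and Cps1 were 0.01 and 0.00, and over the 12 fits they ranged from -0.63 to 5.22 and from -0.48 to 1.03. A likeness of the 2 effects was not tested and is shown for neither gene. The median of this contrast over all genes was 0.12. Between the Chd4 and Fezf2 effects 5 genes differed, where 14.9% of genes did. Rbp4 (-3.47, adjusted p = 0.0065), Cps1 (-3.09, adjusted p = 0.00453) and Pck1 (2.23, adjusted p = 0.000144) passed in all 12 fits, Itih3 (-2.18, adjusted p = 0.0185) in 11 (not without Fezf2 KO library A) and Ahsg (-2.67, adjusted p = 0.0422) in 5. Chd4 libraries came from another sequencing run and strain background than the others, per the column names and labels, and each effect was taken against controls of its own run.

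Genes related to each member, taken from lists written for this purpose, were counted in the same fits, leaving out the 10 genes themselves. In the inter-alpha-inhibitor family with its hyaluronan synthases and receptors, 3 of 8 tested genes fell in Aire KO and 1 rose. Itih4 was at 13.01 ± 6.23 CPM in WT and 0.308 ± 0.364 CPM in Aire KO (log2 -5.29, adjusted p = 0.000246), and Has1, a hyaluronan synthase, had 65 reads in WT and 0 in KO, at least 20.2-fold lower with 3 reads as the floor over the group. In Chd4 cKO 5 of 9 fell, among them Itih1 (log2 -2.07, adjusted p = 0.00128) and Itih4 (-1.76, adjusted p = 0.000138), and 2 rose. In Fezf2 KO 0 of 8 passed. The family's median log2 fold change, with the members in it, was -1.02 in Aire KO, 0.16 in Fezf2 KO and -1.32 in Chd4 cKO.

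In the fetuin and kininogen group few genes could be tested. Fetub, which lies next to Ahsg, rose in Fezf2 KO from 19.9 ± 8.84 to 106 ± 24.4 CPM (log2 2.42, SE 0.35, adjusted p = 0.00481) and fell in Chd4 cKO (log2 -1.06, adjusted p = 0.0035). Kng1, a kininogen gene, fell in Aire KO from 16.6 ± 5.83 to 0.555 ± 0.766 CPM (log2 -4.88, adjusted p = 0.000232) and in Chd4 cKO (-1.68, adjusted p = 0.00223). Of the 3 tested genes of this group besides Ahsg, 1 fell in Aire KO, 1 rose in Fezf2 KO and 3 fell in Chd4 cKO.

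Among other genes of the urea cycle 4 were tested in each comparison. Arg1, which encodes arginase, the last enzyme of the cycle, rose in Fezf2 KO from 30.5 ± 3.33 to 149.7 ± 15.9 CPM (log2 2.29, SE 0.20, adjusted p = 0.000344) and fell in Chd4 cKO from 21.7 ± 3.13 to 9.62 ± 0.729 CPM (log2 -1.16, adjusted p = 0.0015). In Aire KO none of the 4 passed, with an adjusted p of 0.162 for Arg1, so Cps1 was the cycle's only called gene there. In Chd4 cKO Asl rose (log2 0.36, adjusted p = 0.0232), a call held in 9 of 15 settings.

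Of 8 tested genes of gluconeogenesis besides Pck1, 3 fell in Aire KO, 0 passed in Fezf2 KO and 2 fell in Chd4 cKO. Among those in Aire KO were Fbp1 (log2 -2.17, adjusted p = 0.0161) and Fbp2 (-1.91, adjusted p = 0.0161), the first a key enzyme of the pathway; the calls of Fbp1 and Fbp2 held in 12 of 15 settings. In Chd4 cKO they included G6pc, the gene of the enzyme that releases glucose (log2 -1.82, adjusted p = 0.00647, held in 14 of 15 settings). In Fezf2 KO Pck1 was thus the only called gene of its pathway list. List medians, with Pck1, were -0.51, -0.38 and -0.27.

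Among retinoid and thyroid hormone transport genes besides Ttr and Rbp4, directions were mixed. In Aire KO 2 of 10 fell and 2 rose, with Crabp1, a cellular retinoic acid carrier, falling from 618 reads to 3 (ratio 192, 95% exact conditional interval 65.4 to 934, counting error only) and Lrat rising (log2 1.76, adjusted p = 0.0038). In Fezf2 KO 1 of 11 passed, Crabp2, which rose (log2 1.82, adjusted p = 0.00353). In Chd4 cKO 2 of 11 fell and 4 rose. For the albumin family besides Alb and Afp, the 1 gene called was Gc, the vitamin D carrier, which fell in Fezf2 KO (log2 -1.13, adjusted p = 0.0337, held in 11 of 15 settings). Of 6 integrin and protease partners of vitronectin, Plaur fell in Aire KO (log2 -1.96, adjusted p = 0.0468, held in 7 of 14 settings) and Itgb5 and Itgav fell in Chd4 cKO (-1.82 and -0.49, adjusted p = 0.000842 and 0.00669).

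A list of 25 other hepatocyte genes was counted in the same way. In Aire KO 11 of 16 tested fell and 0 rose, with a median log2 fold change of -1.74 that is the same with genes at 0 set to their bound. Cyp1a2 had 326 reads in WT and 0 in KO (at least 101-fold lower), Fgb 148 and 0 (at least 46-fold) and Fga 141 and 0 (at least 43.8-fold), with 3 reads as the floor over the group. In Fezf2 KO 2 of 19 fell, Apoc3 (log2 -2.68, adjusted p = 0.00169) and Trf (-1.71, adjusted p = 0.00359), and Hp, the haptoglobin gene, rose (1.21, adjusted p = 0.00809, held in 12 of 15 settings). In Chd4 cKO 9 of 21 fell, led by Fgb (-2.43), Apob (-1.97) and Apoh (-1.78), and 1 rose, F2, the prothrombin gene (0.96, adjusted p = 0.00849). List medians were -0.35 in Fezf2 KO and -0.37 in Chd4 cKO. Genes of gut and liver type that mTEC subsets are known for fell in all 3 lines, 11 of 15 in Aire KO, 9 in Fezf2 KO and 11 in Chd4 cKO.

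Of 11 transcription factors of the liver tested in Aire KO 1 fell and 1 rose, and of 12 in Fezf2 KO 0 passed. Hnf4a fell from 4.67 ± 0.852 to 0.0714 ± 0.124 CPM in Aire KO, on 66 reads and 1 read (ratio 61.5, 95% exact conditional interval 10.7 to 2467, counting error only). In Fezf2 KO it was at 4.43 ± 3.02 against 8.58 ± 0.984 CPM (adjusted p = 0.387) and in Chd4 cKO at 7.39 ± 2.32 against 9.66 ± 4.38 CPM (adjusted p = 0.414). Cebpa did not pass in any (log2 -0.22, -0.78 and 0.60). Of 11 factors tested in Chd4 cKO 0 fell and 4 rose, led by Prox1 (0.97, held in 12 of 15 settings) and Cebpb (0.97).

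**Figure D4:**
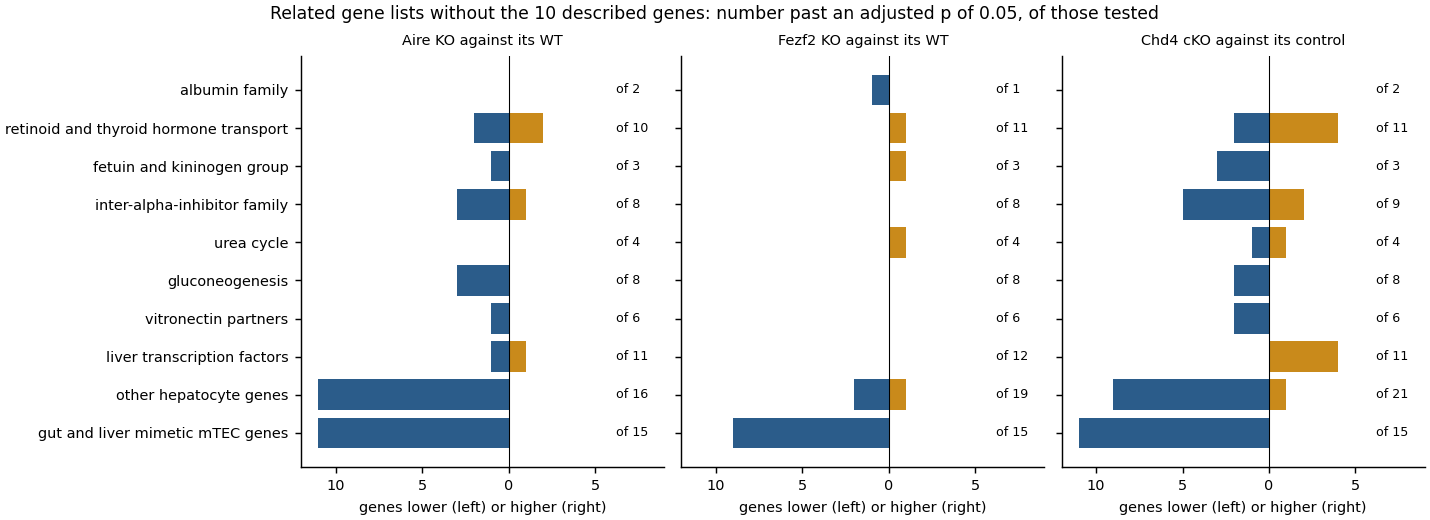
Number of genes past an adjusted p of 0.05 in lists related to the 10 genes, with those genes left out, as bars to the left (lower) and right (higher) of 0 in each knockout; the number tested stands beside each bar. The hepatocyte list has 11 of 16 lower in Aire KO, 2 of 19 in Fezf2 KO and 9 of 21 in Chd4 cKO.

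The genes next to 2 of the loci were examined after their values were seen. Itih4 lies 6219 bases below Itih3 and Itih1 lies 5420 bases above it on chromosome 14. In Aire KO Itih4 and Itih3 were nearly absent, while Itih1 was at 7.14, 7.07 and 6.62 CPM against 6.86, 5.83 and 4.10 CPM in WT (log2 0.31, SE 0.37, adjusted p = 0.657). In Chd4 cKO all 3 fell. At the albumin locus Afm, 10025 bases above Afp, was at 12.9, 8.57 and 8.98 CPM in Aire KO against 11.7, 12.6 and 7.34 CPM in WT (log2 -0.06, SE 0.32, adjusted p = 0.935), where Afp fell and Alb was lower. Whether neighbours differed from each other was not tested. Afm was at 2.31, 0 and 2.41 CPM in WT for Fezf2, lower than in every WT library for Aire (log2 -2.74, SE 0.70, adjusted p = 0.146).

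**Figure D5:**
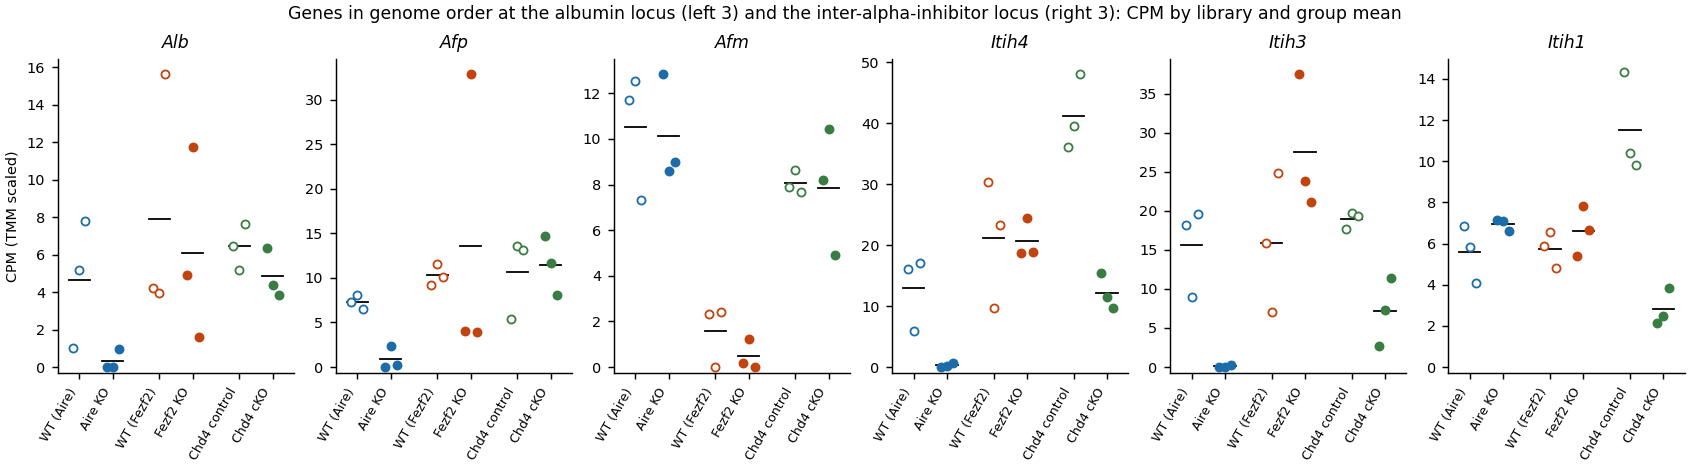
CPM in each library (open for controls, filled for knockouts) and group mean (line) of Alb, Afp and Afm on chromosome 5 and of Itih4, Itih3 and Itih1 on chromosome 14. In Aire KO the points of Itih4 and Itih3 lie near 0 and those of Itih1 between 6.62 and 7.14 CPM.

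For each gene the most similar patterns were sought over the 12 Aire and Fezf2 libraries, by the root mean square difference of centred log2(CPM + 1) among genes of a like mean level. The closest for Itih3 were Mybpc3 and Cpne6 (0.35 each) and Fcna (0.42), for Pck1 Anxa10 (0.41), Col17a1 (0.47) and Ces2e (0.53), and for Ambp Mroh7 (0.29), Cth (0.33) and Drc1 (0.33). Near Ttr were Ms4a10 and Tstd1 (0.73 each), and the nearest to Ahsg was Efemp1, at 0.38. The nearest to Alb was Ucp1 (0.56), to Afp Sohlh1 (0.56), to Rbp4 Lce3d (0.48), to Cps1 Il12b (0.50) and to Vtn Gm15657 (0.27). No gene of the 10 was among the 3 nearest of another. These libraries share a run and an annotation, and a low gene has a small distance to many others.

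Summed levels of markers of other cells differed between some groups. Thymocyte markers summed to 680 to 1159 CPM in WT for Fezf2 and 425 to 475 CPM in Fezf2 KO, 8 of 15 tested fell, and none was at 0 in all 3 libraries of either group. They summed to 227 to 332 CPM in WT for Aire and 300 to 403 CPM in Aire KO. Macrophage and dendritic cell markers summed to 126 to 161 CPM in WT for Aire and 55.1 to 62.4 CPM in Aire KO, with 5 of 7 tested lower, 1 higher and 2 of 10 at 0 in the KO. Fibroblast and endothelial markers summed to 117 to 130 CPM and 74.7 to 97.4 CPM there, with 4 of 6 lower and 1 higher. In Chd4 cKO 3 of 8 macrophage and dendritic cell markers fell and 1 rose, and 2 of 5 fibroblast and endothelial markers fell. Thymocyte markers summed there to 220 to 239 CPM in controls and 243 to 267 CPM in cKO. B cell markers summed to 41.4 to 44.7 CPM in WT and 27.2 to 36.9 CPM in KO for Aire, to 50.5 to 85.4 and 32.8 to 39.7 CPM for Fezf2, and to 51.4 to 56.8 and 78.5 to 99.6 CPM in Chd4 controls and cKO. Of the B cell markers tested, only Cd79b in Chd4 cKO passed (log2 1.09, adjusted p = 0.000274). Y-linked genes summed to 0.476 to 213.5 CPM over the Aire KO libraries, 12.3 to 196 CPM in their WT, and 0.479 to 157.6 CPM in the Chd4 controls against 0 to 0.719 CPM in the cKO. In the libraries of the Fezf2 comparison they summed to 0.229 to 1.65 CPM. The share of reads from male mice thus differed between groups, and between libraries of a group. The part of these marker levels in the results above was not tested.

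In the authors' deposited table, which gives log2 mean RPKM per group and q values, 5 of the genes had a q under 0.05 in Aire KO, all lower (Alb, Afp, Ambp, Itih3 and Cps1). Of these, Alb (q = 0.00855) and Ambp (q = 0.0493) were not among the calls of the filtered edgeR fit of these 6 libraries, where Alb was not tested and Ambp missed the threshold. The authors' deposited table had Ttr and Pck1 lower in Fezf2 KO and Ahsg higher (q = 0.0151). For Chd4 cKO the authors' deposited table had the same 5 genes as the edgeR fit, with q from 4.45e-16 for Ttr to 0.00162 for Itih3.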

How the data were processed

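Per the labels' protocols, RNA from sorted mTECs was extracted on a Maxwell 16 and amplified with a SMART-seq v4 kit before sequencing. The authors deposited total exon read counts per gene and library in 3 tables, 1 for each line, per the file headers. The authors also deposited a summary of log2 mean RPKM per group with p-values and q-values, per the file headers. The submitters' processing notes name DESeq2 and the builds mm10 and GRCm38. The sources used here name no aligner, no handling of strand and no role for DESeq2. Replicate numbers are missing from the count columns, which were therefore matched to groups alone; libraries A, B and C are in barcode order, and 216 other per-library columns were not used. Date-like symbols of 25 genes were restored from gene IDs.

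Each comparison of 3 against 3 libraries was fitted on all genes with edgeR 4.0.16 in R 4.3.3 (TMM, filterByExpr, quasi-likelihood F test), and a gene was called at a Benjamini-Hochberg adjusted p under 0.05. The filter needs enough reads in 3 libraries of a comparison, so a low gene can pass through the group where it is higher. Counts and medians of members and lists rest in part on this. Standard errors are the log2 fold change divided by the square root of F. Interaction contrasts used all 18 libraries over the 21875 gene IDs common to the tables. RPKM here are CPM divided by the tables' exon length. Calls were also run on simulated data, with a single spread for all genes that was smaller than the one fitted in the Fezf2 comparison. Their outcome is not reported here, and no result above rests on it. Alternatives were RLE and upper quartile scaling, DESeq2 1.42.0, limma-voom with sample weights (limma 3.58.1), other filters, thinning to equal total reads and leaving out each library. Leaving out libraries in the interaction contrasts was chosen after seeing the data.

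The 10 genes and the related lists were chosen with earlier results of these data known. Named genes are the 10, up to 3 called genes per list and comparison with the largest change, Hnf4a and Cebpa, the targeted genes and the 3 nearest patterns; a few genes that this rule names are not reported here. Promoters are from RefSeq (GRCm38.p6), gene positions from the tables with starts raised by 1. Exact conditional intervals cover counting error only; those of 1.96 SE also hold the spread between libraries.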

Additional observations from a re-analysis of the deposited data

Results flagged for a closer look

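The effects of 2 knockouts on a gene were taken to differ where their interaction contrast passed an adjusted p of 0.05 in the edgeR fit of all 18 libraries. For Fezf2 KO minus Aire KO these were Afp (3.36), Ttr (-3.06), Rbp4 (3.48), Ahsg (4.05), Itih3 (8.08), Cps1 (3.09), Pck1 (-3.09) and Vtn (2.96), as differences of log2 fold changes. For Chd4 cKO minus Aire KO they were Ttr (-2.74) and Itih3 (5.90). For Chd4 cKO minus Fezf2 KO they were Rbp4 (-3.47), Ahsg (-2.67), Itih3 (-2.18), Cps1 (-3.09) and Pck1 (2.23). The values for Itih3 against Aire KO rest on 1 read in the Aire KO libraries, and those for Vtn on 3 reads, so their size is uncertain.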

How the results depend on the processing

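No paired analysis was possible because the count columns carry no replicate number. Under the alternatives run, no called value changed its sign. Called members in Aire KO were 3, and 6 with no filter on low counts, 5 with limma-voom and 2 to 5 with a library left out. In Fezf2 KO they were 2, and 4 with limma-voom and 1 to 3 with a library left out. In Chd4 cKO they were 5, and 5 to 6 with a library left out. Over all genes the calls in Aire KO were 2257, and 3466 with no filter and 1687 to 2356 with a library left out. In Fezf2 KO they were 765, and 1387 with no filter, 1286 with DESeq2, 2500 with limma-voom and 169 to 2034 with a library left out, the last without WT library B. In Chd4 cKO they were 4339, and 3229 to 3963 with a library left out. Between the WT groups they were 20, and 8 with upper quartile factors, 455 with no filter, 383 with DESeq2, 779 with limma-voom, 11 after thinning and 0 to 636 with a library left out. Interaction calls of all genes were 2740 for Fezf2 minus Aire, 2664 for Chd4 minus Aire and 2409 for Chd4 minus Fezf2, and with a library left out 2194 to 3143, 2075 to 2342 and 1719 to 3057. Upper quartile scaling moved the median of all genes by at most -0.05 (log2). Low read numbers kept Alb, Ahsg and Vtn out of some tests. The causes were not tested.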
